A study of Mus musculus with 6 samples.

Results

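The autophagy and mitophagy machinery described here comprises 41 genes, listed by name and found in the count table by their Ensembl gene ID in the GENCODE M21 annotation of the mouse genome build GRCm38. All 41 were found among the 48795 gene IDs of the table, and all 41 passed a count filter (10 or more counts in 3 or more libraries) that kept 12627 genes. The RNA came from cells washed out of the airspaces by bronchoalveolar lavage, from C57BL/6 mice of wild type, 8 to 12 weeks old. In the study, mice of both sexes were given CdCl2 (100 ng/kg) or saline intratracheally under isoflurane, with lavage on day 7. The 6 libraries are titled CD170, CD171, CD174, then CD176, CD177 and last CD178 (titles, not surface antigens). They carry no exposure and no sex in the labels used here, and they therefore form no groups, cadmium and saline were not compared, and each library is given by its own value. Where 6 values follow each other, they stand in that order of titles.

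Autophagy is the process by which a cell wraps part of its cytoplasm in a double membrane, the autophagosome, and delivers it to the lysosome. A kinase complex around ULK1 starts the process, a lipid kinase complex around Beclin 1 and VPS34 marks the site, and lipid transfer and scramblase proteins enlarge the membrane. Ubiquitin-like conjugation then attaches the ATG8 proteins (the LC3 and GABARAP families) to the membrane lipid phosphatidylethanolamine, where they bind cargo receptors such as p62. Mitophagy is the removal of mitochondria by the same machinery. Macrophages of the alveoli also use parts of it when they take up particles and microbes.

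The libraries held 7732244 (CD174) to 23599369 (CD178) counts in genes. Levels are CPM (counts scaled to a common library size, with TMM factors from edgeR between libraries), and the spread of a gene is its log2 range, the highest minus the lowest library in log2 CPM. The 10 alveolar macrophage markers were all present, summing to 27623 to 33814 CPM. A log2 range of at least 1 was found for 1 of the 10, against 50.5% of filtered genes. It was Marco, at 604 CPM in CD174 and 292 to 370 CPM elsewhere. CD174 and CD171 stood apart: reads in no annotated feature took 25.0% of all counts in CD174 and 16.6% in CD171, against 6.49 to 7.29% in the other 4 libraries. The 10 epithelial markers summed to 3164 CPM in CD174 and to 135 to 536 CPM elsewhere. The 7 red cell markers summed to 111.7 CPM in CD177 and 2884 CPM in CD170. Neutrophil markers summed to 101.9 to 134.5 CPM, with the defining gene Ly6g at 0 counts in each library, and lymphocyte markers summed to 1.64 to 7.15 CPM. In such mixed samples, fewer cells of a type and less RNA per cell cannot be told apart.

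Gabarap, an ATG8 gene, had the highest median level of the 41. The ends of 4 of the 5 ATG8 coding sequences are shown because they carry the site that lipid attachment needs. The end of Map1lc3b is not shown and was not examined. The ATG4 proteases cut each ATG8 protein just after a glycine, which frees that glycine for lipid attachment. The lines give the last 36 coding bases of these 4 genes, stop codon included, on the coding strand, from the GENCODE M21 transcripts, with the codon of the last glycine in capitals.
Map1lc3a: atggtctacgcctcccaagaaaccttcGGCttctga
Gabarap: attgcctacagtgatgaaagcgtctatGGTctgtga
Gabarapl1: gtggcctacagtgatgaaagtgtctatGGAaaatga
Gabarapl2: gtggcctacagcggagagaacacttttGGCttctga

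These stretches each lie in a single exon on the plus strand of GRCm38, at chr2:155277602-155277637, chr11:69994489-69994524, chr6:129541132-129541167 and chr8:111952370-111952405 in the order printed. The glycine is codon 120 of 121 in Map1lc3a and codon 116 of 117 in Gabarap, Gabarapl1 and Gabarapl2. In each of these printed genes 1 codon follows it before the stop. The LC3-interacting region of p62 makes a separate contact, in which its tryptophan fits a pocket of the ATG8 proteins. Its coding bases in Sqstm1, from the minus strand at chr11:50202535-50202564, are printed with the tryptophan codon (codon 340 of 442) in capitals.
Sqstm1: ggagacgatgacTGGacacatttgtcttca

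As a whole, the 41 genes were moderately expressed and differed little between most libraries. Their median levels ran from 8.70 CPM for Atg16l2 to 649 CPM for Gabarap, with a median of 44.1 CPM over the 41. Together they took 3310 CPM in CD178 to 3731 CPM in CD171. A log2 range of at least 1, a 2-fold difference between the highest and lowest library, was found for 11 of 41 genes (26.8%), against 50.5% of the 12627 filtered genes. Of the 8391 filtered genes whose median lay between those of Atg16l2 and Gabarap, a background chosen after the values were seen, 30.4% reached this range, near the share of the 41. A log2 range of at least 2 was found for Stx17 and Atg9a, which is 4.88% of the 41, against 25.2% of all filtered genes and 4.59% of those in the same span of levels. The median log2 range was 0.71 for the 41 genes, 1.01 for all filtered genes and 0.75 for those in the same span.

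**Figure D1:**
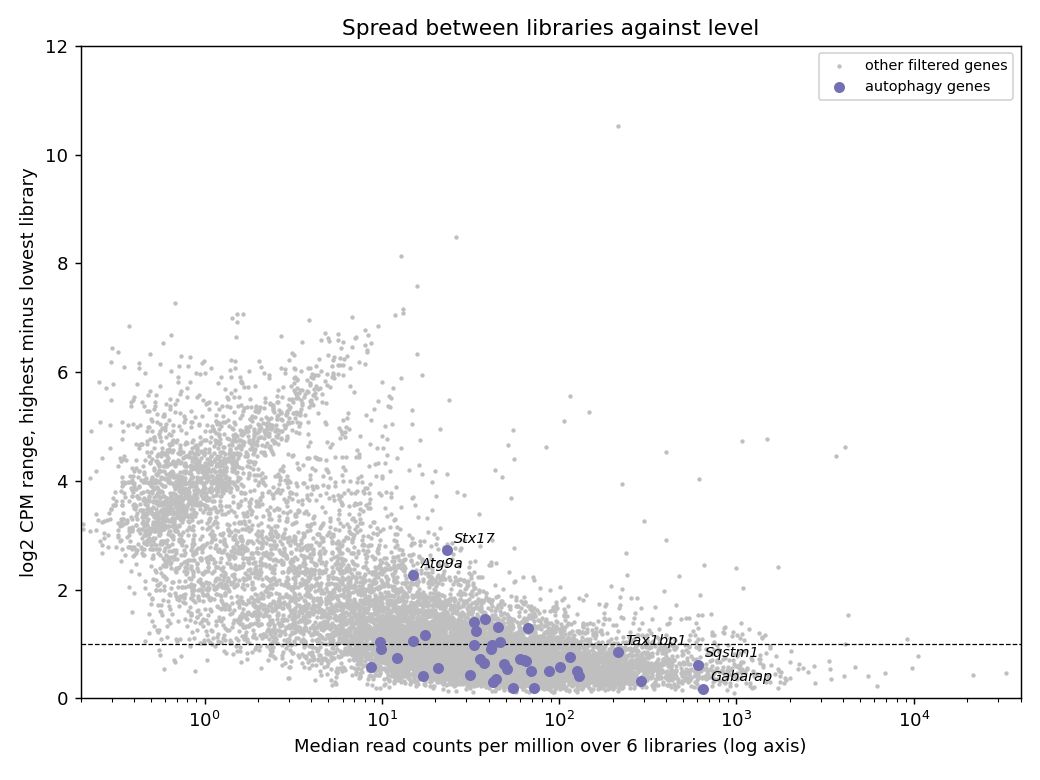
Log2 CPM range over the 6 libraries (vertical axis) against median CPM (horizontal log axis) for the 41 autophagy genes (purple) and the other filtered genes (grey), with a dashed line at a range of 1. Of the 41 genes 11 lie on or above the line, with Stx17 (2.73) and Atg9a (2.26) highest and Gabarap (0.18) lowest.

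Among the initiation genes, Ulk2, a kinase related to ULK1, had the highest median CPM and Ulk1 the widest log2 range. CPM is not corrected for gene length, here or in the groups below. Per kilobase of annotated exon, Atg101 was higher, at a median of 22.3 CPM against 11.6 CPM for Ulk2. Ulk2 was at 65.8, 71.4, 84.0, 67.0, 71.3 and 59.4 CPM, a log2 range of 0.50. Ulk1 (chr5:110784488-110810097), the kinase that starts autophagosome formation, was at 34.7, 54.2, 33.2, 30.5, 38.8 and 22.9 CPM. Its highest library was thus CD171 and its lowest CD178, 2.37-fold apart. Leaving out CD174, which was at neither end, left the log2 range at 1.24. With scaling redone, the range was 0.76 without CD171 and 0.84 without CD178. The scaffold gene Rb1cc1 (which encodes FIP200) and Atg13, which links the kinase to it, were both lowest in CD174, at 26.5 and 22.2 CPM, against 39.2 to 52.5 CPM and 24.2 to 43.7 CPM in the other 5 libraries. Atg101, a partner of ATG13, ranged from 31.1 to 51.2 CPM. The summed initiation genes stayed between 187.6 CPM in CD178 and 241 CPM in CD171.

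Of the 6 genes of the Beclin 1 and VPS34 nucleation complexes, 5 were lowest in CD174, where 37.2% of filtered genes were lowest, and 3 had a log2 range of at least 1, against 50.5% of filtered genes; the exception to the former was Atg14, lowest in CD170. Ambra1, a positive regulator of Beclin 1, was at 40.0, 48.6, 17.6, 35.7, 36.4 and 41.1 CPM. Uvrag, a subunit of the VPS34 complex of endosomes, was at 43.8, 40.4, 20.3, 46.0, 50.6 and 46.6 CPM in the same order of libraries. Its exons overlap Gm45187 over 1589 of 9035 bases, so its level is uncertain. Pik3r4, the VPS15 subunit that holds the lipid kinase, was at 45.1, 34.0, 17.0, 33.2, 33.2 and 32.6 CPM. For each of these genes CD174 lay below the other 5 libraries, which differed among themselves by 0.44, 0.33 and 0.47 on the log2 scale. Becn1, which encodes Beclin 1, had the highest median CPM of the group, at 63.6, 70.6, 43.2, 60.4, 63.6 and 68.3 CPM. It overlaps Cntd1 over 3104 of its 7065 annotated exon bases and shares 45.7% of its 50-base windows with other genes, so its level is uncertain too. Pik3c3, the VPS34 lipid kinase itself, was close to even at 41.5 to 52.9 CPM, and Atg14, which directs the complex to autophagosome sites, ran from 16.0 CPM in CD170 to 23.6 CPM in CD176. Summed over the 6 genes, CD174 held 160.4 CPM and the other libraries 244 to 261 CPM.

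Genes for membrane expansion split between steady and variable members. Atg2a, a lipid transfer protein and the most abundant of the group, was at 69.2, 59.9, 75.6, 49.3, 60.7 and 46.0 CPM. Its relative Atg2b ranged from 26.9 to 36.2 CPM, also highest in CD174 and lowest in CD178. Wipi2, a phosphoinositide reader that recruits the conjugation enzymes, was among the 4 steadiest genes at 44.7, 44.7, 38.1, 36.2, 40.9 and 44.1 CPM, and Wipi1 lay between 5.96 CPM in CD174 and 11.3 CPM in CD178. Atg9a (chr1:75180860-75192196), the lipid scramblase carried in vesicles, was at 20.4, 12.0, 4.17, 16.7, 20.4 and 13.4 CPM. The CD174 value rests on 28 counts (95% Poisson interval 2.77 to 6.03 CPM, counting error only), and without CD174 the log2 range was 0.77. Atg9a shares 1878 of its 5762 annotated exon bases with Ankzf1 and Gm29253, so its level is uncertain. The share of ambiguous reads was 9.99% for CD174 and 5.48 to 6.78% otherwise, and their part in this value was not tested.

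The conjugation genes spanned much of the range of levels, with Atg3, Atg7 and Atg5 highest of the 7 in CPM and Atg10 and Atg16l2 lowest. Atg3, the E2-like enzyme that passes ATG8 to the lipid, was at 133, 109, 145, 132, 127 and 123 CPM, a log2 range of 0.41. Atg7, the E1-like enzyme that activates both ATG8 and ATG12, ranged from 108 CPM in CD174 to 153 CPM in CD170. Atg5, the acceptor of ATG12, ranged from 73.3 CPM in CD174 to 125 CPM in CD176, with 99.4 CPM the next lowest value. Atg12, the small modifier joined to ATG5, was at 33.9, 69.9, 34.1, 55.7, 48.4 and 43.8 CPM. Here CD170 and CD174 were both low and CD171 high. The log2 range of 1.04 was the same without CD174 and was 0.71 without CD171. Atg10, the E2-like enzyme for ATG12, was low at 9.92, 9.65, 5.66, 10.8, 11.7 and 8.50 CPM in library order, with 38 counts in CD174. Of the scaffold pair, Atg16l1 lay at 37.1 to 42.1 CPM in 5 libraries and 26.7 CPM in CD170, and Atg16l2 at 7.30 to 11.0 CPM.

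The ATG4 proteases, which cut the ATG8 ends printed above, differed more between libraries than the ATG8 genes did. A log2 range of at least 1 was found for 3 of 4 against 0 of 5. The background was 50.5% of filtered genes and 30.4% of those in the span of levels used above. The ATG4 genes were also lower, with medians of 14.9 to 66.9 CPM against 48.9 to 649 CPM for the ATG8 genes. Atg4a and Atg4d, both among the 3, have uncertain levels, as given below. This difference between gene groups was not tested, and neither was the part of level in it. Atg4c, the most abundant of the proteases, was at 65.6, 91.6, 37.4, 68.1, 86.9 and 64.5 CPM. Atg4a was at 17.1, 10.9, 17.1, 24.5, 18.1 and 20.6 CPM in that order, and Atg4d at 16.0, 7.95, 14.1, 12.3, 15.7 and 16.5 CPM. The lowest library was therefore CD174 for Atg4c and CD171 for Atg4a and Atg4d. Atg4b, known as the most active of the proteases, ranged from 25.6 CPM in CD174 to 48.3 CPM in CD171, a log2 range of 0.91. Atg4a shares 63.6% of the 50-base windows of its longest coding transcript with other genes, mainly Atg4a-ps, and Atg4d overlaps Kri1 over 1405 exon bases, so both levels are uncertain.

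**Figure D2:**
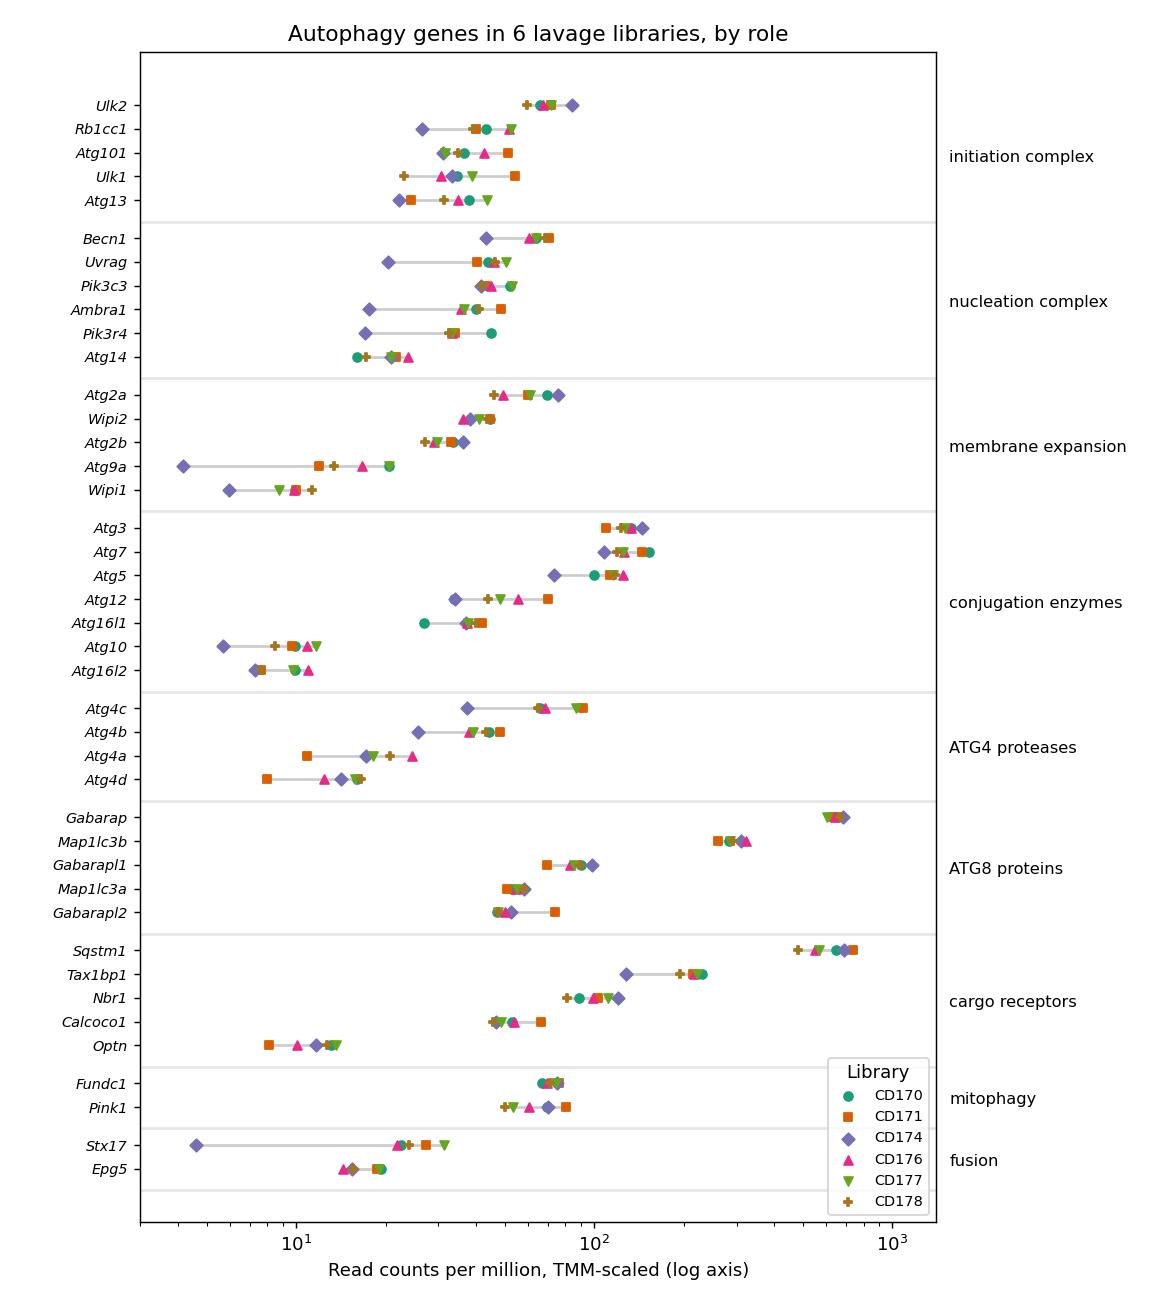
CPM of each of the 41 genes (horizontal log axis) in the 6 libraries (colours and symbols), grouped by role, with a grey line from the lowest to the highest library. CD174 (purple diamonds) is far left for Stx17 at 4.62 CPM and Atg9a at 4.17 CPM, while the 6 points of Gabarap lie between 603 and 682 CPM.

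The ATG8 genes themselves were the steadiest group, with log2 ranges from 0.18 to 0.64. Gabarap (chr11:69991143-69994951) was at 654, 631, 682, 643, 603 and 666 CPM. Map1lc3b, the LC3 gene most used as an autophagosome marker, was at 282, 260.1, 309.6, 323, 286 and 293 CPM in that order. Map1lc3a was nearly even at 53.1, 50.9, 58.1, 54.7, 55.1 and 57.9 CPM. Gabarapl1 had its lowest value, 69.6 CPM, in CD171 and its highest, 98.0 CPM, in CD174. Gabarapl2 differed from the rest of the group: CD171 was at 73.6 CPM while the other 5 libraries lay between 47.3 and 52.6 CPM. The 5 genes summed to 1077 CPM in CD177 and 1201 CPM in CD174. Gabarapl1 overlaps 1700101I11Rik over 570 of its 2013 annotated exon bases, so its level is uncertain. Gabarapl1 shares 18.6% and Gabarapl2 17.0% of their 50-base windows with other annotated genes. Reads aligned to several places took 6.80 to 11.0% of all counts and were not assigned to genes.

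Of the cargo receptors, which tether cargo to ATG8, Sqstm1 led. Sqstm1 (chr11:50199366-50210827), which encodes p62, was at 646, 739, 688, 552, 565 and 481 CPM. The libraries CD170, CD171 and CD174 were thus above the other 3, and the highest was 1.54-fold the lowest. Its exons overlap Mrnip on the opposite strand over 580 of 3356 bases. Tax1bp1, a receptor for ubiquitinated cargo, was at 229.6, 214, 127, 215, 220.4 and 194 CPM in library order, with CD174 below the rest. Nbr1, a relative of p62, ranged from 81.1 CPM in CD178 to 120.3 CPM in CD174, and Calcoco1, a receptor for parts of the endoplasmic reticulum, from 45.7 CPM in CD178 to 66.4 CPM in CD171. Optn, which encodes the mitophagy receptor optineurin, was far lower at 8.10 to 13.6 CPM.

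Both mitophagy genes were present in every library, Fundc1 nearly even and Pink1 with a log2 range of 0.68. Fundc1, a mitophagy receptor of the outer mitochondrial membrane, was at 66.5, 76.3, 74.9, 69.2, 74.4 and 70.7 CPM, a log2 range of 0.20. Pink1, the kinase that marks damaged mitochondria, was at 69.1, 80.4, 70.1, 60.6, 53.4 and 50.2 CPM in that order. As for Sqstm1, the libraries CD170, CD171 and CD174 held the 3 highest Pink1 values. The same held for Atg2b, at 33.0 to 36.2 CPM against 26.9 to 29.7 CPM, and for Fkbp8 and Vps18 of the companion lists below. This likeness was noticed after the values were seen, and no test was made. The share of all filtered genes with this split was not counted.

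The fusion genes held the largest difference of all 41. Stx17 (chr4:48124915-48186507), the membrane fusion protein of the completed autophagosome, was at 22.4, 27.2, 4.62, 21.8, 31.3 and 23.9 CPM. The CD174 value rests on 31 counts, with a 95% Poisson interval of 3.14 to 6.55 CPM that covers counting error only, and lies 6.78-fold below CD177. Without CD174 the log2 range fell from 2.73 to 0.52. Epg5, a tether between autophagosome and lysosome, was at 14.4 to 19.2 CPM.

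Level per length allows genes to be compared with each other. Per kilobase of annotated exon, Gabarap was first in each of the 6 libraries, at 327 to 370.1 CPM per kilobase. Sqstm1, with the Mrnip overlap given above, was second in each, at 143 to 220.1. The next 5 genes overlapped: the ranges in CPM per kilobase were 31.1 to 53.0 for Atg5, 43.1 to 49.2 for Map1lc3a, 34.6 to 48.7 for Gabarapl1, 34.6 to 45.9 for Atg3 and 34.6 to 43.0 for Map1lc3b. Fundc1 followed at 28.3 to 32.4, and Atg16l2 was last by median, at 0.862 to 1.30. The order depends on the length used: with the longest annotated transcript Map1lc3b moved from place 7 to place 3 and Atg5 from 3 to 7, and 7 of 41 genes moved by 5 places or more. Within libraries, Gabarap was 8.10 to 9.89 times Map1lc3b per kilobase (6.09 to 7.43 times with the longest transcript).

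**Figure D3:**
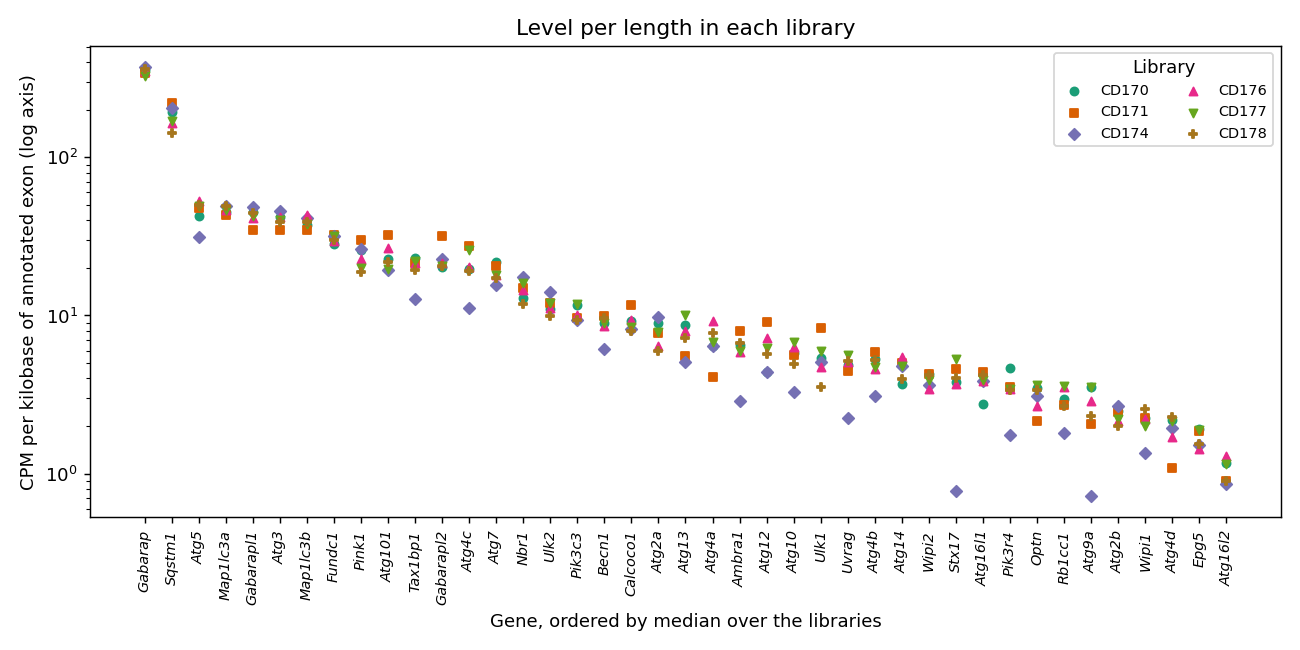
CPM per kilobase of annotated exon (vertical log axis) for the 41 genes in the order of their medians, with 1 point per library. Gabarap (median 352) and Sqstm1 (median 180.5) stand above the other 39 genes in each library, and Atg16l2 is last at a median of 1.03.

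Across libraries, CD174 was the lowest for 18 of 41 genes (43.9%), against 37.2% of all filtered genes and 36.5% in the same span of levels. It was the highest for 8 (19.5%), against 29.9% of filtered genes. CD171 was the highest for 13 genes (31.7%), among them Ulk1, Atg12, Atg4c, Gabarapl2 and Sqstm1, against 20.1% of filtered genes and 21.2% in the span. CD178 was the lowest for 8 genes (19.5%), against 9.12% of filtered genes: Ulk1, Ulk2, Atg2a, Atg2b, Sqstm1, Nbr1, Calcoco1 and Pink1. Lowest values fell on CD171 for 7 genes (23.9% of filtered genes), on CD170 for 5 (10.5%), on CD176 for 2 (8.81%) and on CD177 for 1 (10.5%). Highest values fell on CD177 for 7 (12.5%), on CD170 for 6 (14.5%), on CD176 for 5 (11.5%) and on CD178 for 2 (11.5%). Relative to the median of the other 5 libraries, CD174 was lower by a median of -0.17 on the log2 scale for the 41 genes and -0.10 for all filtered genes. By role, this median was -1.31 for the fusion pair, the midpoint of -2.34 for Stx17 and -0.28 for Epg5. It was -0.76 for nucleation, -0.45 for the proteases, -0.41 for conjugation, -0.23 for initiation and -0.21 for expansion. For cargo receptors it was -0.13, for ATG8 0.12 and for the mitophagy pair 0.15. Under total-count scaling, all filtered genes moved to -0.35, the ATG8 genes to -0.16 and the mitophagy pair to -0.11, so both flip sign but stay above the median of all genes. The part of the epithelial markers, the unannotated reads and the depth of CD174 in these values was not tested.

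**Figure D4:**
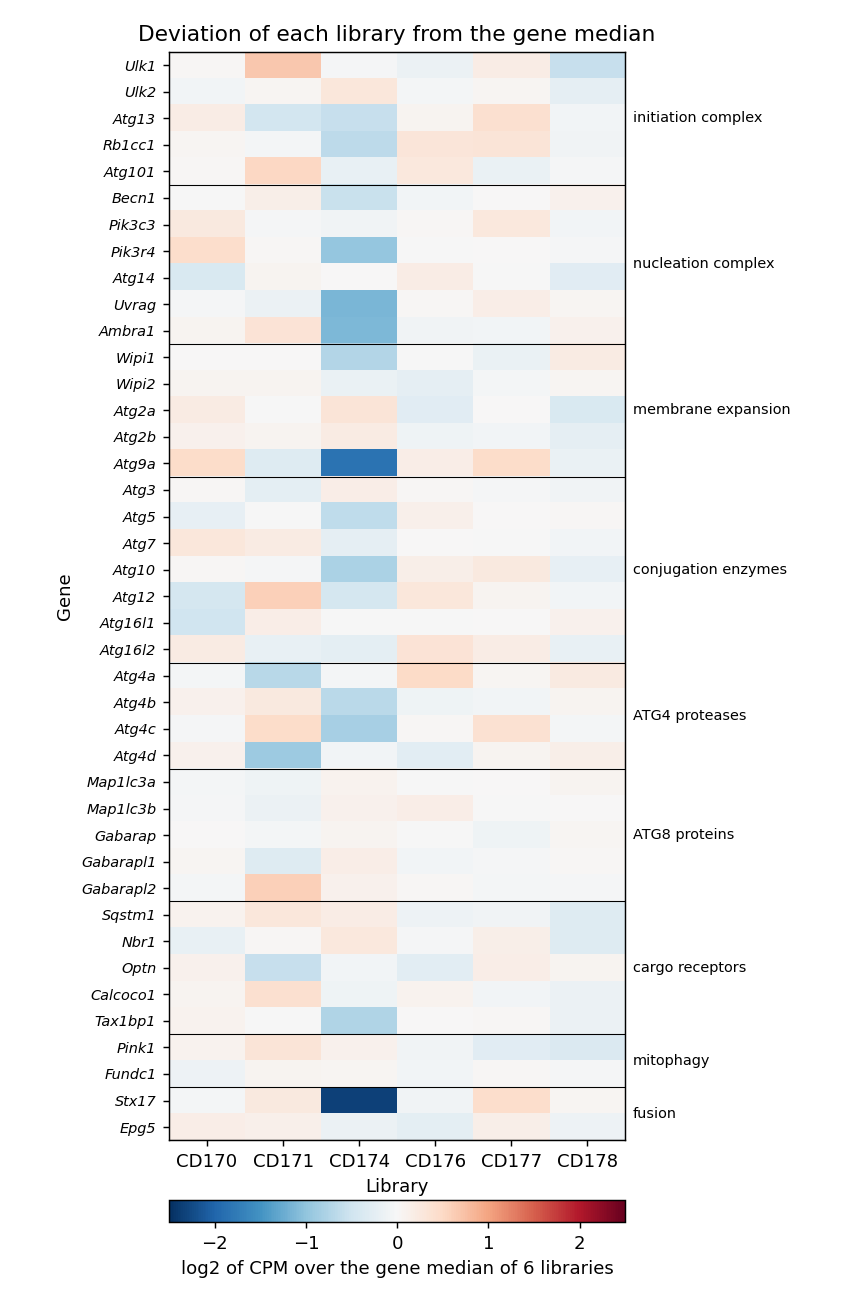
Log2 of the CPM over the gene's median of the 6 libraries for each of the 41 genes (rows, by role) and library (columns), blue below and red above the median. CD174 holds the darkest cells, for Stx17 and Atg9a, and the ATG8 rows are pale apart from Gabarapl2 in CD171.

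Across the 41 genes, the Spearman correlation of longest transcript length with the CD174 difference was -0.19, against -0.21 across 12604 filtered genes and -0.32 across the 8385 of them in the same span. Genes are not independent replicates and share the library, so this is a description. The 20 genes with the longer transcripts (4138 to 9660 bases) had a median difference of -0.46, and the 21 with the shorter (1112 to 3895 bases) one of -0.08.

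In the 4 libraries other than CD171 and CD174, 0 of 41 genes reached a log2 range of 1, against 19.1% of filtered genes and 2.28% of those in the same span of levels. The widest of the 41 was Ulk1 at 0.76, from 22.9 to 38.8 CPM, followed by Atg12 at 0.71. The narrowest was Gabarapl2, at 0.09 and 47.3 to 50.2 CPM. The median log2 range over these 4 libraries was 0.42 for the 41 genes, 0.46 for all filtered genes and 0.36 for those in the span.

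A further 46 genes of the pathway were taken from 4 companion lists. Of the 45 past the count filter, 11 (24.4%) reached a log2 range of 1 over the 6 libraries, against 50.5% of filtered genes. Over the 4 libraries without CD171 and CD174 the count was 0, against 19.1% of filtered genes and 2.28% in that span. Lowest in CD174 were 25 of the 45, against 37.2% and 36.5%. Among 9 other mitophagy genes, 3 reached that range. Bnip3l, which encodes the receptor NIX used when red cells clear their mitochondria, was the most abundant at 277.7, 302, 240.6, 335, 324 and 343 CPM. The red cell markers summed to 2884, 1865, 331, 1732, 111.7 and 2478 CPM in the same order, and their part in the Bnip3l values was not tested. Its relative Bnip3 was low, at 3.63 to 8.54 CPM in 5 libraries and 0.744 CPM, from 5 counts, in CD174.

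Among 15 further machinery genes, 5 reached a log2 range of 1. Ncoa4, the receptor that delivers ferritin to autophagosomes, ranged from 114.4 CPM in CD174 to 269.7 CPM in CD170, and Tmem41b, a scramblase of the endoplasmic reticulum, from 7.30 CPM in CD174 to 33.3 CPM in CD177. In the 11 fusion genes 1 reached that range, Vps33a at 37.7 to 80.7 CPM, and Rab7, the GTPase of late endosomes, stayed at 251 to 334 CPM. Of these 11 genes, 5 were lowest in CD174 and 2 highest there, against 37.2% and 29.9% of filtered genes. Their sum was highest in CD174, at 1365 CPM, against 1219 to 1359 CPM elsewhere. Among the regulators 10 of 11 passed the filter and 2 reached a log2 range of 1. Tfeb, the transcription factor that drives lysosome and autophagy genes, was at 124.9, 63.7, 142.4, 99.0, 82.7 and 82.8 CPM. Rptor, a subunit of the mTOR complex that restrains autophagy, was at 9.68 CPM in CD174 and 20.3 to 27.5 CPM elsewhere.

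TFEB binds the CLEAR element, which holds the core CACGTG. Promoters of 34 of the 41 genes were matched by symbol in the RefSeq table of GRCm38.p6, each from 250 bases before to 50 after a start site, and both strands were searched. The core was in 4 of the 34 (11.8%), which were Atg3, Atg5, Atg7 and Atg14, and in 8.09% of 27025 genes. The longer form TCACGTGA, which includes the core, was in Atg3 alone of the 34 (2.94%; 1.12% of genes). The antioxidant response core TGACNNNGC was in Atg13, Map1lc3b, Tax1bp1 and Ulk2 (11.8%; 14.0% of genes), the cyclic AMP element TGACGTCA in Atg5 and Atg16l2 (5.88%; 2.03%), and the FOXO core TGTTTAC in none (4.05%). The windows of Atg7 and Atg14 lie at starts 27999 and 2215 bases inside the annotated gene, so they are not the windows of the outermost start. The windows of Atg3 and Atg5, whose starts lie within 44 bases of the annotated gene start, are printed with each CACGTG in capitals.
Atg3: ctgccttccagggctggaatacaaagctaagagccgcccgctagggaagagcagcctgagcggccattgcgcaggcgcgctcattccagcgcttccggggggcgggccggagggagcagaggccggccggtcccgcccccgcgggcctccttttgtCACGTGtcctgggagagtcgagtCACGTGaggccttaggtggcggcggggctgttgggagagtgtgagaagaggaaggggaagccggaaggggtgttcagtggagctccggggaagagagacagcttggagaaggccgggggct
Atg5: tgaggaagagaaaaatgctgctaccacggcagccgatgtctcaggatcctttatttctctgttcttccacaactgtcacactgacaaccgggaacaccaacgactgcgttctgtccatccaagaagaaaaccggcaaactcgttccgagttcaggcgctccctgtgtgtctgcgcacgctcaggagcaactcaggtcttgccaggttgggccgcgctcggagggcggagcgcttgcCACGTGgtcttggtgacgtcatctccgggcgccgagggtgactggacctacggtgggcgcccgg

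These lie on the plus strand at chr16:45158579-45158878 and chr10:44268089-44268388. The Tfeb levels above were lowest in CD171 and highest in CD174. Of the 4 genes with the core, only Atg3 shared both ends, at 109 CPM in CD171 and 145 CPM in CD174. Of all filtered genes, 23.9% were lowest in CD171 and 29.9% highest in CD174, and the share with both was not counted. Atg5 was lowest in CD174 at 73.3 CPM, as was Atg7 at 108 CPM, and Atg14 was lowest in CD170 at 16.0 CPM. Gabarapl1, whose window lacked the core, was also lowest in CD171 (69.6 CPM) and highest in CD174 (98.0 CPM). So was Map1lc3a, which had no matched window, at 50.9 and 58.1 CPM. A link between these levels and Tfeb was not tested. A match to these letters is a description and shows no binding.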

How the data were processed

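The authors deposited raw read counts per Ensembl gene for 6 lavage libraries, whole numbers with no normalization. The submitters' processing notes name HTSeq 0.11.2, STAR 2.7.1a, Trim Galore 0.6.2 and bcl2fastq 2.18.0.12, with build GRCm38. The strand setting and annotation release are not given in the sources read, so a gene and its antisense partner cannot be told apart. The 5 rows that name no gene (18.8 to 46.0% of counts) were kept out of library sizes. IDs were matched to GENCODE M21 without their version (48435 of 48795). Counts were scaled by TMM in edgeR 4.0.16 (R 4.3.3), and log2 CPM used a prior count of 2. A count of 0 allows 3 counts, 0.123 to 0.447 CPM. Intervals are exact Poisson and cover counting error only. No library has a group, so no test between groups, mean or SD was made; single libraries were compared with the rest by Dixon's ratio. The members, lists and thresholds were chosen with earlier results of these data known. Full values are given for the gene with the highest median CPM in each of 9 roles. They are also given for genes with a log2 range of at least 1 and for the 4 steadiest. Others were named after their values were seen. Alternatives were a prior of 0.5, no filter, scaling by total counts or by DESeq2 1.42.0, and leaving out libraries. Scripts were tested on simulated data; matplotlib 3.10.9, scipy 1.17.1, pandas 2.3.3 and numpy 2.4.6 ran under Python 3.11.15. Some items are not reported here.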

Additional observations from a re-analysis of the deposited data

Results flagged for a closer look

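For 9 of the 41 genes, the gap between the highest or lowest library and its nearest neighbour exceeded Dixon's 95% critical share of the whole range in log2 CPM (0.625 for 6 libraries). Chance marks about 1 in 20 such sets, but 17.5% of all filtered genes were marked, so the 22.0% of the 41 is near that background. In 7 of the 9 the library apart was CD174, at the low end: Stx17 (4.62 CPM, gap 0.81 of the range), Uvrag (20.3 CPM, 0.75), Tax1bp1 (127 CPM, 0.72), Ambra1 (17.6 CPM, 0.70), Becn1 (43.2 CPM, 0.68; it overlaps Cntd1), Pik3r4 (17.0 CPM, 0.67) and Atg9a (4.17 CPM, 0.66). The exons of Uvrag, Atg9a and Tax1bp1 overlap other genes as well. Gabarapl2 was marked for its high value in CD171 (73.6 CPM, 0.76) and Atg16l1 for its low value in CD170 (26.7 CPM, 0.72).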

How the results depend on the processing

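No paired analysis was possible because the labels put none of the libraries in a group. All 41 genes passed the filter under each alternative run. The count with a log2 range of at least 1 was 11; it was 17 with total counts, where the background was 53.0% of filtered genes, and 10 with DESeq2 size factors. With 1 library left out in turn it ran from 4 to 10; it was 4 without CD174 (Ulk1, Atg12, Atg4a and Atg4d; 31.0% of genes) and 7 without CD171 (42.5%). Without both it was 0, against 16.9% of the 12238 genes that pass the filter in those 4 libraries alone. The count with a range of at least 2 was 2, with 0 to 2 when 1 library was left out: 0 without CD174, and 0 without CD171 and CD174. With total counts 0 genes were highest in CD174 in place of 8, and 26 in place of 18 were lowest there, while the shares of all filtered genes went from 29.9 to 19.5% and from 37.2 to 48.2%; without 1 of the other libraries these counts were 8 to 12 and 18 to 20. With no filter the count with a log2 range of at least 1 was 13, and the background rose to 62.6%, as 22077 genes were examined. Of the 20 log2 ranges given in full, 0 moved beyond their counting interval with DESeq2 size factors, a prior of 0.5 or no filter. Total-count scaling moved 7. Leaving out 1 library moved 10 for CD174, 6 for CD171, 2 for CD178, 1 each for CD170 and CD177 and 0 for CD176. Leaving out CD171 and CD174 together moved 15. Among the 41 genes, depth limits Atg9a (28 counts) and Stx17 (31 counts) in CD174 most.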
